A study of Mus musculus with 12 samples.

Results

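Triglyceride assembly and the supply of its glycerol backbone were followed through 8 genes in eWAT, the white fat depot beside the mouse epididymis, of animals that had lost part of the liver. The genes were fixed by name and not by their values: Gpd1, Pck1 and Gk, which provide glycerol 3-phosphate, Gpam and Agpat2, which attach the acyl chains of phosphatidic acid, Lpin1, a phosphatidic acid phosphatase, and Dgat1 and Dgat2, which attach the last acyl chain. All 8 had values in every library and passed the filter on low counts, and they stand among 17012 genes tested, 18086 genes with values and 22151 genes in the deposited table. The series belongs to a study on hepatic Yap1, systemic catabolism and liver repair.

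RNA was sequenced in bulk from 12 male mice aged 12 to 14 weeks, with the strain written C57bl6 for the samples and C57BL6/J for the series; no transgene or engineered allele is named for any group. The 4 control mice had sham surgery, a laparotomy without liver resection. Removal of 70% of the liver was followed by tissue collection at day 3 in 5 mice and at day 7 in 3 mice. The day on which sham mice were sampled is not stated, and a label describes their tissue as preceding hepatectomy, so time since surgery and resection cannot be told apart in comparisons with sham. Each library came from its own animal. The sequenced molecule is labelled polyA RNA although the design text calls the method total RNA-sequencing, and no label gives the strandedness of the libraries.

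In fat cells, triglyceride is built on glycerol 3-phosphate, which comes from glucose through the glycolytic intermediate dihydroxyacetone phosphate, from pyruvate and amino acids through glyceroneogenesis, or from free glycerol. GPD1 reduces dihydroxyacetone phosphate to glycerol 3-phosphate. Cytosolic PEPCK, the product of Pck1, makes phosphoenolpyruvate as a step within glyceroneogenesis. Glycerol kinase, the product of Gk, phosphorylates glycerol and is classically scarce in white fat. GPAM and AGPAT2 then make lysophosphatidic and phosphatidic acid, lipin 1 removes the phosphate to give diacylglycerol, and DGAT1 and DGAT2 close the molecule. Fasting and adrenergic signals raise cAMP in fat cells, and the Pck1 promoter holds a well-studied cAMP response element.

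Promoter sequence from RefSeq was matched to 5 of the 8 genes, Gpam with 2 start sites, on build GRCm38.p6; Gpd1, Dgat1 and Dgat2 had no entry. The 250 bases before the start site are shown for Pck1 and Gk, the glycerol 3-phosphate genes with an entry. That branch was chosen because Gpd1 and Pck1 belong to it. Of the 8 genes, only these had day 7 and sham groups that did not overlap. Gk overlapped in every comparison. Over all genes tested, 2.83% were higher and 4.07% lower at day 7 than in sham without overlap. Capitals mark every match, on either strand, to the TATA box (letters TATAAA), the CAAT box (letters CCAAT), the GC box (letters GGGCGG), the E-box (letters CACGTG), the full cAMP response element (letters TGACGTCA) or its variant known from the Pck1 promoter (letters TTACGTCA). The Pck1 stretch lies at chr2:173152823-173153072 on the plus strand and the Gk stretch at chrX:85776820-85777069 on the minus strand, both printed 5′ to 3′ on the gene's strand.
Pck1: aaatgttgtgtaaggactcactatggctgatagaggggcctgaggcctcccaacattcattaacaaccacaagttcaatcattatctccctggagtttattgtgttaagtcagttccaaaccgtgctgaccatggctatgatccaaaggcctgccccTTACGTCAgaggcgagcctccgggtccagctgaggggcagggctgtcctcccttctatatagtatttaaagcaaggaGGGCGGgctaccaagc
Gk: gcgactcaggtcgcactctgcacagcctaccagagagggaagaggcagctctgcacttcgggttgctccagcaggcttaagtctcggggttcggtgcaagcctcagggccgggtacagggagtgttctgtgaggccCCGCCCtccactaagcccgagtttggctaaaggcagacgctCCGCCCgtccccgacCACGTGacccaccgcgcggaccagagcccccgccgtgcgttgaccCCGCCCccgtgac
In the Pck1 stretch, TTACGTCA spans positions -93 to -86 and GGGCGG positions -16 to -11, counted from -1 as the last base before the start. The TTACGTCA letters occurred in 0.447% of 32851 RefSeq promoter stretches of the same length, and in none of the other matched promoters of these genes. The Gk stretch holds CACGTG at -58 to -53 and GGGCGG on the opposite strand at -114 to -109, -73 to -68 and -13 to -8; CACGTG occurred in 6.02% and GGGCGG in 32.7% of all stretches. GGGCGG also stood before Agpat2 at -42 to -37 and, sharing a base, at -37 to -32, and before the downstream start of Gpam at -16 to -11 on the opposite strand. CCAAT (33.8% of all stretches) stood at -74 to -70 on the opposite strand before the upstream start of Gpam, and the Lpin1 stretch held none of the 6 motifs. These matches describe letters and not binding.

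Total counts ranged from 13128832 to 23474247 per library. Adipocyte markers, 12 of 12 measured, summed to 23168 to 46690 counts-per-million (CPM) in sham mice. The sum was 26746 to 39334 CPM at day 3 and 21707 to 45930 CPM at day 7, so its ranges overlapped. The markers did not move together. In day 3 mice 1 to 4, Adipoq (909 to 1502 CPM) lay below every sham mouse (1595 to 4227 CPM). So did Plin1 (562 to 851 CPM against 981 to 1364 CPM). In day 3 mouse 5 both lay above every sham mouse. Mean Fabp4, Lep, Lipe, Pnpla2 and Acsl1 were higher at day 3 than in sham, and the other means were lower. Day 7 mouse 1 had the lowest Adipoq (328 CPM) and Plin1 (312 CPM) of all libraries, and correlated at a mean r of 0.895 with its own group over all genes. Sham mouse 4 carried 2315 CPM of Alb, a hepatocyte gene, against 192 CPM or less elsewhere. The library labelled day 3 mouse 1 had 359 CPM of Xist against at most 1.83 CPM in the others and 0.643 CPM of Ddx3y against at least 81.1 CPM, which goes against its male label. Day 3 mouse 5 correlated more closely with the sham libraries (mean r 0.953) than with its own group (0.924). So did day 7 mice 1 (0.896 against 0.895), 2 (0.945 against 0.916) and 3 (0.945 against 0.928). Fewer cells of a type and less RNA per cell cannot be told apart in bulk tissue. All p-values below are from edgeR's quasi-likelihood test on all 12 libraries, and adjusted p-values are Benjamini-Hochberg over the 17012 genes.

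Gpd1 was the gene with the smallest p of the 8 in the comparison of day 7 with sham. Its level was 484, 523, 686 and 717 CPM in the 4 sham mice, 1039, 542, 312, 589 and 699 CPM at day 3, and 901, 2253 and 1881 CPM at day 7. All 3 day 7 libraries lay above all 4 sham libraries, while day 3 enclosed the sham range. Mean levels were 602 ± 116 CPM (SD, n = 4), 636 ± 266 CPM (SD, n = 5) and 1678 ± 699 CPM (SD, n = 3). The log2 difference between day 7 and sham was 1.48 (SE 0.39), a 2.79-fold higher level, with an edgeR adjusted p = 0.564. It ranked 66 among the p-values of all genes and did not pass the adjusted threshold of 0.05. Without day 7 mouse 1 the log2 difference was 1.80, and without day 7 mouse 2 it was 1.21. At day 3 the log2 difference from sham was 0.08 (SE 0.35; edgeR adjusted p = 0.947). Day 7 exceeded day 3 by 1.40 (SE 0.37; edgeR adjusted p = 0.999), with an overlap set by day 3 mouse 1 above day 7 mouse 1. Gpd1 lies at chr15:99615396-99622887 on the plus strand of mm39 (ENSMUSG00000023019).

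Pck1 went the other way. Sham libraries held 1917, 5161, 3627 and 2314 CPM, day 3 libraries 1946, 1071, 1931, 2561 and 2363 CPM, and day 7 libraries 695, 1800 and 341 CPM. All 3 day 7 values lay below all 4 sham values, narrowly so for day 7 mouse 2 (1800 CPM) against sham mouse 1 (1917 CPM), and 4 of the 5 day 3 values lay within the sham range. Group means were 3255 ± 1466 CPM (SD, n = 4) in sham, 1974 ± 573 CPM (SD, n = 5) at day 3 and 945 ± 761 CPM (SD, n = 3) at day 7. Day 7 differed from sham by -1.78 on the log2 scale (SE 0.55), a level 0.290 times that of sham, with an edgeR adjusted p = 0.632, ranking 167 of all genes. Day 3 differed from sham by -0.72 (SE 0.45; edgeR adjusted p = 0.559) and day 7 from day 3 by -1.06 (SE 0.52; edgeR adjusted p = 0.999). Without day 7 mouse 2 the log2 difference of day 7 from sham was -2.65, and without day 7 mouse 3 it was -1.35. Pck1 lies at chr2:172994841-173001067 on the plus strand of mm39 (ENSMUSG00000027513).

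Gk had the lowest level per kilobase of exon of the 8 genes in every library. The 4 sham libraries read 9.68, 8.60, 11.0 and 10.0 CPM, the others 16.4, 11.1, 15.2, 15.2 and 10.2 CPM at day 3, and 24.4, 13.0 and 10.3 CPM at day 7. Of the 8 hepatectomy libraries 6 lay above the sham range, and day 3 mouse 5 and day 7 mouse 3 lay inside it. The log2 difference was 0.47 (SE 0.27; edgeR adjusted p = 0.528) at day 3 and 0.70 (SE 0.31; edgeR adjusted p = 0.789) at day 7. Leaving out day 7 mouse 1 took the day 7 difference to 0.27, and leaving out day 3 mouse 1, the library with high Xist, left 0.38 at day 3 for this X-linked gene. Day 7 and day 3 differed by 0.23 (SE 0.29; edgeR adjusted p = 0.999).

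**Figure D1:**
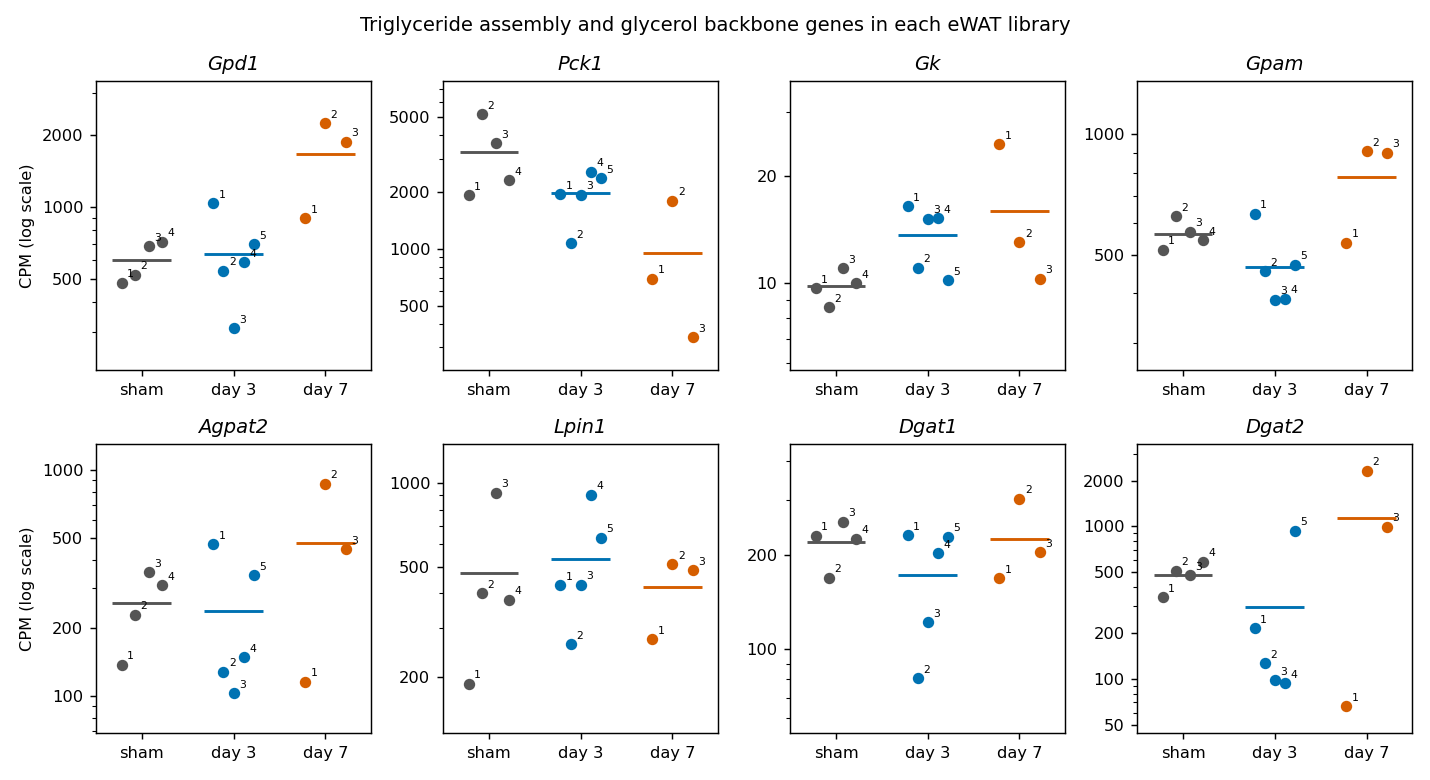
Level of each of the 8 genes in every library, in counts-per-million (CPM) on a log axis; points are mice, small digits are replicate numbers and horizontal lines are group means. Gpd1 at day 7 (901 to 2253 CPM) lies above every sham library and Pck1 at day 7 (341 to 1800 CPM) below every sham library, and Dgat2 spans 66.3 to 2324 CPM within the 3 day 7 mice.

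Gpd1 and Pck1 were therefore compared within each library, as a ratio of CPM that needs no scaling between libraries and is not corrected for exon length. Gpd1 stood at 0.101 to 0.310 of the Pck1 level in the sham mice and at 0.162 to 0.534 of it at day 3. At day 7 the ratio was 1.30, 1.25 and 5.52, so Gpd1 counts exceeded Pck1 counts in all 3 day 7 libraries and in no other. The mean log2 ratio was -2.35 ± 0.70 (SD, n = 4) in sham, -1.68 ± 0.74 (SD, n = 5) at day 3 and 1.05 ± 1.22 (SD, n = 3) at day 7. The ratio was chosen with these levels known and carries no test.

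**Figure D2:**
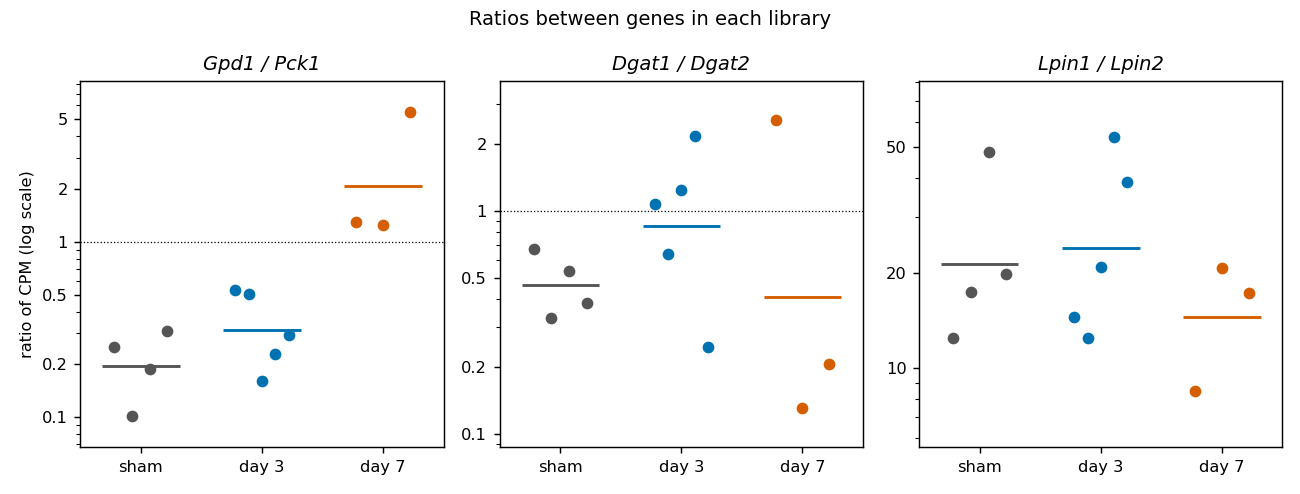
Ratio of CPM between pairs of genes in each library, on a log axis, with the mean of the log values as a horizontal line; the dotted line marks a ratio of 1. The Gpd1 to Pck1 ratio exceeds 1 at day 7 alone (1.25 to 5.52), whereas Dgat1 to Dgat2 lies on both sides of 1 at day 3 (0.245 to 2.18) and at day 7 (0.131 to 2.55).

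Gpam, the mitochondrial glycerol 3-phosphate acyltransferase, varied least of the 8 genes over the 12 libraries, by 2.36-fold. Its sham levels were 514, 625, 571 and 543 CPM, against 633, 454, 385, 388 and 471 CPM at day 3, and 535, 907 and 899 CPM at day 7. In 4 of the 5 day 3 mice it was below every sham value, and in day 7 mice 2 and 3 above every sham and day 3 value. The log2 difference from sham was -0.27 (SE 0.22; edgeR adjusted p = 0.656) at day 3 and 0.47 (SE 0.25; edgeR adjusted p = 0.8291) at day 7, and day 7 exceeded day 3 by 0.74 (SE 0.24; edgeR adjusted p = 0.999). Groups overlapped in all 3 comparisons.

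Agpat2, whose loss in people and mice causes lipodystrophy, read 137, 229, 353 and 308 CPM in sham and 469, 128, 103, 149 and 341 CPM at day 3. At day 7 it read 116, 871 and 445 CPM, so the lowest and the highest day 7 mouse lay outside the sham range on opposite sides. The log2 differences from sham were -0.11 (SE 0.57; edgeR adjusted p = 0.957) and 0.89 (SE 0.64; edgeR adjusted p = 0.879), and the day 7 difference was 0.13 without day 7 mouse 2. Day 7 and day 3 differed by 1.00 (SE 0.61; edgeR adjusted p = 0.999), and by 0.24 without day 7 mouse 2.

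Lpin1 encodes lipin 1, which also acts as a transcriptional co-regulator in liver and fat. Its widest spread lay among the sham mice, at 189, 401, 921 and 380 CPM, against 429, 263, 431, 906 and 635 CPM at day 3 and 275, 511 and 484 CPM at day 7. Every hepatectomy library lay inside the sham range. Its log2 differences were 0.17 (SE 0.44; edgeR adjusted p = 0.904) for day 3 against sham, -0.16 (SE 0.50; edgeR adjusted p = 0.979) for day 7 against sham and -0.33 (SE 0.48; edgeR adjusted p = 0.999) for day 7 against day 3. Without sham mouse 3 the first of these was 0.72 and that for day 7 was 0.39. Set against its paralog Lpin2, the ratio of CPM, not corrected for exon length, ran from 12.5 to 48.1 in sham, 12.5 to 53.8 at day 3 and 8.46 to 20.6 at day 7.

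The DGAT enzymes are unrelated in sequence and catalyse the same last step. In sham mice Dgat1 held 231, 170, 256 and 226 CPM, with 232, 80.9, 122, 203 and 229 CPM at day 3, and 169, 304 and 205 CPM at day 7. It was below the sham range in day 3 mice 2 and 3, just below it in day 7 mouse 1 (168.9 CPM against 169.7 CPM in sham mouse 2) and above it in day 7 mouse 2. Its log2 difference from sham was -0.35 (SE 0.31; edgeR adjusted p = 0.682) at day 3 and 0.03 (SE 0.35; edgeR adjusted p = 0.996) at day 7, and day 7 exceeded day 3 by 0.38 (SE 0.33; edgeR adjusted p = 0.999).

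Dgat2 was the most variable of the 8 genes, with a 35.1-fold span. Sham libraries were close together at 344, 513, 477 and 588 CPM. Day 3 libraries held 215, 127, 97.8 and 93.5 CPM in mice 1 to 4 and 937 CPM in mouse 5, so 4 lay below and 1 above every sham mouse. Day 7 libraries held 66.3, 2324 and 997 CPM, the lowest and the highest values of all 12 libraries among them. Above the sham range lay day 3 mouse 5 and day 7 mice 2 and 3. The log2 difference from sham was -0.71 (SE 0.84; edgeR adjusted p = 0.773) at day 3 and 1.23 (SE 0.95; edgeR adjusted p = 0.879) at day 7, and day 7 exceeded day 3 by 1.94 (SE 0.90; edgeR adjusted p = 0.999). Without day 3 mouse 5 the day 3 difference was -1.88, and without day 7 mouse 2 the day 7 difference was 0.15. Between day 7 and day 3 the difference ran from 0.86 without day 7 mouse 2 to 3.14 without day 3 mouse 5. Day 7 mouse 1, with the lowest Dgat2, was also the library with the lowest Adipoq and Plin1. Day 3 mice 1 to 4, below every sham mouse in Dgat2, were also below every sham mouse in Adipoq and Plin1. Day 3 mouse 5, high in Dgat2, held the most Adipoq (4331 CPM) and Plin1 (1807 CPM). Its summed adipocyte markers (39334 CPM) lay below those of sham mouse 3 (46690 CPM) and day 7 mouse 2 (45930 CPM). Day 7 mouse 3, also high in Dgat2, held 2028 CPM of Adipoq and 1042 CPM of Plin1. Both were below their sham means (2973 and 1209 CPM) but inside the sham ranges (1595 to 4227 and 981 to 1364 CPM). The part of fat cell content in the Dgat2 values was not tested.

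**Figure D3:**
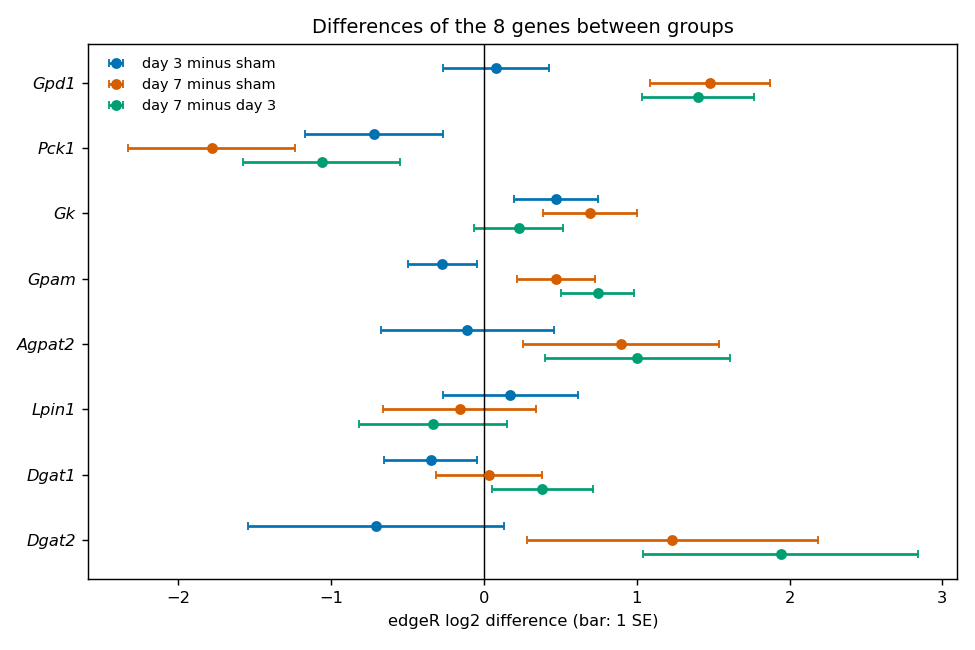
edgeR log2 differences of the 8 genes for day 3 minus sham, day 7 minus sham and day 7 minus day 3, with bars of 1 SE. For day 7 minus sham, Gpd1 (1.48) and Pck1 (-1.78) lie farthest from 0 relative to their bars, and Dgat2 has the widest bars of the 8 genes.

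Counted together, 0 of the 8 genes passed the adjusted threshold in any comparison with edgeR. At day 3 against sham 1 of all tested genes passed (0.00588%), 10.9% had an unadjusted p under 0.05, and 1.58% and 2.14% had groups that did not overlap, higher and lower; 0 of the 8 genes met any of these. The 8 log2 differences were positive in 3 and negative in 5, with a median of -0.19, against 8224 positive and 8788 negative and a median of -0.02 over all genes. At day 7 against sham 0 of all tested genes passed (0%), 6.26% had an unadjusted p under 0.05, and 2.83% and 4.07% did not overlap, higher and lower. Of the 8 genes, Gpd1, Gk and Pck1 had an unadjusted p under 0.05, Gpd1 was higher without overlap and Pck1 lower without overlap. Their median was 0.58, with 6 positive and 2 negative, against 0.01 over all genes. At day 7 against day 3 the shares over all genes were 0%, 3.34%, 1.35% and 1.37%; Gpam and Gpd1 had an unadjusted p under 0.05, 0 of the 8 were free of overlap, and the median was 0.56 against 0.03. The comparisons share libraries, so their differences are not independent. DESeq2 on the same counts called 121, 68 and 22 genes in the 3 comparisons, among them Gpd1 at day 7 against sham (log2 difference 1.49, SE 0.39, adjusted p = 0.0385) and no other of the 8.

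In the authors' deposited table, Gpd1 at day 7 had a log2 ratio of 1.49, a p-value of 1.54e-04 and a false discovery rate (FDR) of 0.0573. In the authors' deposited table, Pck1 had a log2 ratio of -1.75, p-value 3.85e-04 and FDR 0.0979. Gk followed in the authors' deposited table with 0.70 and FDR 0.748, and at day 3 the FDR of the 8 genes ran from 0.565 for Pck1 to 0.969 for Gpd1.

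Per kilobase of merged exon, which allows levels to be set between genes, Pck1 led in sham at a mean of 949 CPM per kb, followed by Gpd1 at 203, Dgat2 at 156, Agpat2 at 121, Gpam at 84.5, Dgat1 at 72.2, Lpin1 at 48.9 and Gk at 1.27. The sham ranges of neighbours in this order were apart for Pck1 and Gpd1 and for Lpin1 and Gk alone. At day 3 the order was Pck1 (576 CPM per kb), Gpd1 (215), Agpat2 (112), Dgat2 (95.4), Gpam (70.0), Dgat1 (56.8), Lpin1 (55.1) and Gk (1.76), with only Lpin1 and Gk apart. At day 7 Gpd1 led at 567 CPM per kb, before Dgat2 (366), Pck1 (276), Agpat2 (224), Gpam (117), Dgat1 (73.9), Lpin1 (43.8) and Gk (2.06), and the ranges of Dgat1 and Lpin1 and of Lpin1 and Gk were apart. Library by library, Pck1 had the highest level per kb in all 9 sham and day 3 libraries and Gpd1 in all 3 day 7 libraries. The Gpd1 to Pck1 ratio per kb was at most 0.618 in the former and from 1.45 to 6.39 in the latter. Day 7 mouse 2 held the highest level of 5 of the 8 genes (Gpam, Agpat2, Dgat1, Dgat2 and Gpd1), and day 3 mouse 3 the lowest of 3 (Gpam, Agpat2 and Gpd1).

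**Figure D4:**
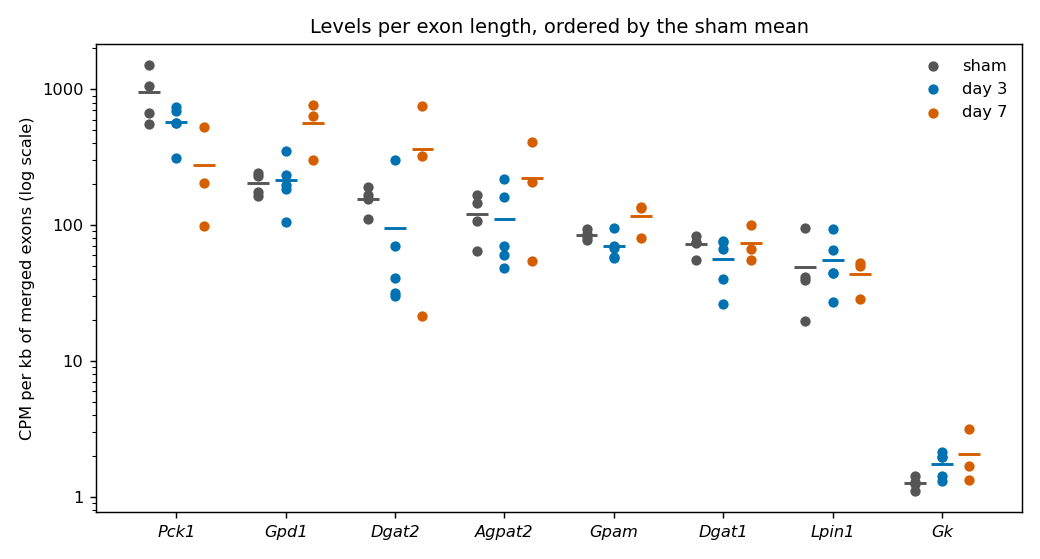
Level of the 8 genes per kilobase of merged exon, on a log axis, ordered by the sham mean; points are libraries and horizontal lines group means. Pck1 leads in sham (949 CPM per kb) and at day 3 (576), Gpd1 leads at day 7 (567), and Gk lies between 1.11 and 3.16 CPM per kb throughout.

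The rest of the pathway was taken from a list of 38 genes, of which 34 were tested and Aqp3, Gpat2, Fitm1 and Ldaf1 had no values. None of the 34 passed the adjusted threshold in edgeR. At day 3 against sham 19 were positive and 15 negative (median 0.06), with 2 up and 1 down at an unadjusted p under 0.05. At day 7 against sham it was 21 and 13 (median 0.05), with 3 up and 0 down. At day 7 against day 3 it was 21 and 13 (median 0.16), with 1 up and 0 down. Over all genes, an unadjusted edgeR p under 0.05 was met by 10.9%, 6.26% and 3.34% in these comparisons. Groups free of overlap, higher and lower, numbered 0 and 1, 2 and 1, and 1 and 1 of the 34. The shares over all genes were 1.58% and 2.14%, 2.83% and 4.07%, and 1.35% and 1.37%. By DESeq2, Aldoa passed at day 7 against sham (log2 difference 0.89, SE 0.24, adjusted p = 0.0373).

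In the branch that supplies glycerol 3-phosphate, 12 genes were tested. Of these, 8 had positive differences from sham at day 7, as had 8617 of all 17012 genes. Aldoa, the aldolase that forms dihydroxyacetone phosphate, the substrate of GPD1, held 624, 731, 1032 and 812 CPM in sham and 1123, 1686 and 1621 CPM at day 7. Its day 7 libraries lay above every sham library, with a log2 difference of 0.88 (SE 0.25; edgeR adjusted p = 0.564), and day 7 exceeded day 3 by 0.54 (SE 0.24; edgeR adjusted p = 0.999). Gpd2, the mitochondrial enzyme that oxidises glycerol 3-phosphate, differed between day 7 and day 3 by 1.28 (SE 0.59; edgeR adjusted p = 0.999). Aqp7, the glycerol channel of fat cells and named here after its values were seen, held 103 to 141 CPM in sham and 4.47, 102 and 35.9 CPM at day 7. The groups did not overlap, though day 7 mouse 2 lay close below the lowest sham mouse, and the log2 difference was -1.36 (SE 0.97; edgeR adjusted p = 0.878). Aqp7 in day 3 mouse 5 (122 CPM) lay inside the sham range, and the other day 3 mice held 6.86 to 43.4 CPM.

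Among the other acylation genes, 7 of 11 had positive differences from sham at day 3 and 7 of 11 at day 7. Over all 17012 genes, 8224 were positive at day 3 and 8617 at day 7. Agpat1, a second lysophosphatidic acid acyltransferase, differed by -0.59 at day 3 (SE 0.23; edgeR adjusted p = 0.421), with day 3 mouse 5 at 84.7 CPM inside the sham range of 81.8 to 93.8 CPM. Acsl4, which activates polyunsaturated fatty acids, held 35.3 to 66.8 CPM in sham and 226, 45.2 and 60.1 CPM at day 7. Day 7 mouse 1, the library with the lowest Adipoq and Plin1, lay above the sham range and the other day 7 mice inside it, and the log2 difference was 1.07 (SE 0.55; edgeR adjusted p = 0.827). Acsl5 was the gene of the 34 free of overlap between day 7 and day 3 in the upward direction, at 0.33 (SE 0.20; edgeR adjusted p = 0.999), and was named after its values were seen.

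Of 7 phosphatase genes and their regulators, 6 had positive differences from sham at day 3 and 6 at day 7. Over all 17012 genes, 8224 and 8617 were positive, and both comparisons share the sham libraries. At day 7, Plpp3 (0.01, SE 0.25), Ctdnep1 (0.03, SE 0.18) and Plpp1 (0.04, SE 0.52) were near 0. The 1 negative gene there was Cnep1r1 (-0.07, SE 0.22). Lpin3, the third lipin, held 5.57 to 12.4 CPM in sham, 9.08 to 29.1 CPM at day 3 and 32.5, 9.65 and 13.1 CPM at day 7. Its log2 difference was 1.41 at day 3 (SE 0.44; edgeR adjusted p = 0.403) and 1.26 at day 7 (SE 0.48; edgeR adjusted p = 0.739), with overlap in both through day 3 mouse 5 and day 7 mouse 2. Lpin2 was higher at day 7, at 32.5, 24.7 and 27.96 CPM, than in every sham mouse (15.2 to 23.1 CPM), by 0.57 (SE 0.24; edgeR adjusted p = 0.786), and exceeded day 3 by 0.44 (SE 0.23; edgeR adjusted p = 0.999). Plpp2, a lipid phosphate phosphatase, differed by 0.48 at day 3 (SE 0.19; edgeR adjusted p = 0.424).

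The 4 remaining genes of the last step and of droplet formation had fitted differences from sham at day 7 from -0.15 to -0.02. The SE was 1.07 for Mogat1, 1.39 for Mogat2, 0.43 for Bscl2 and 0.33 for Fitm2. Mogat1 held 0.693, 39.8 and 19.2 CPM at day 7 against 8.39 to 34.1 CPM in sham. Bscl2 held 85.1, 332 and 244 CPM at day 7 against 171 to 298 CPM in sham. For both, day 7 mice lay below and above the sham range. Mogat2, a monoacylglycerol acyltransferase, was near the detection limit, at 1.26 to 3.26 CPM in sham, 0 to 0.862 CPM at day 3 with 3 libraries at 0, and 0.189 to 4.50 CPM at day 7. Its fitted log2 differences were -2.78 at day 3 (SE 1.30; edgeR adjusted p = 0.459) and 2.73 for day 7 against day 3 (SE 1.36; edgeR adjusted p = 0.999), and they rest on few reads. Fitm2, a lipid droplet biogenesis gene named after its values were seen, had day 7 libraries below every day 3 library, by -0.62 (SE 0.33; edgeR adjusted p = 0.999).

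**Figure D5:**
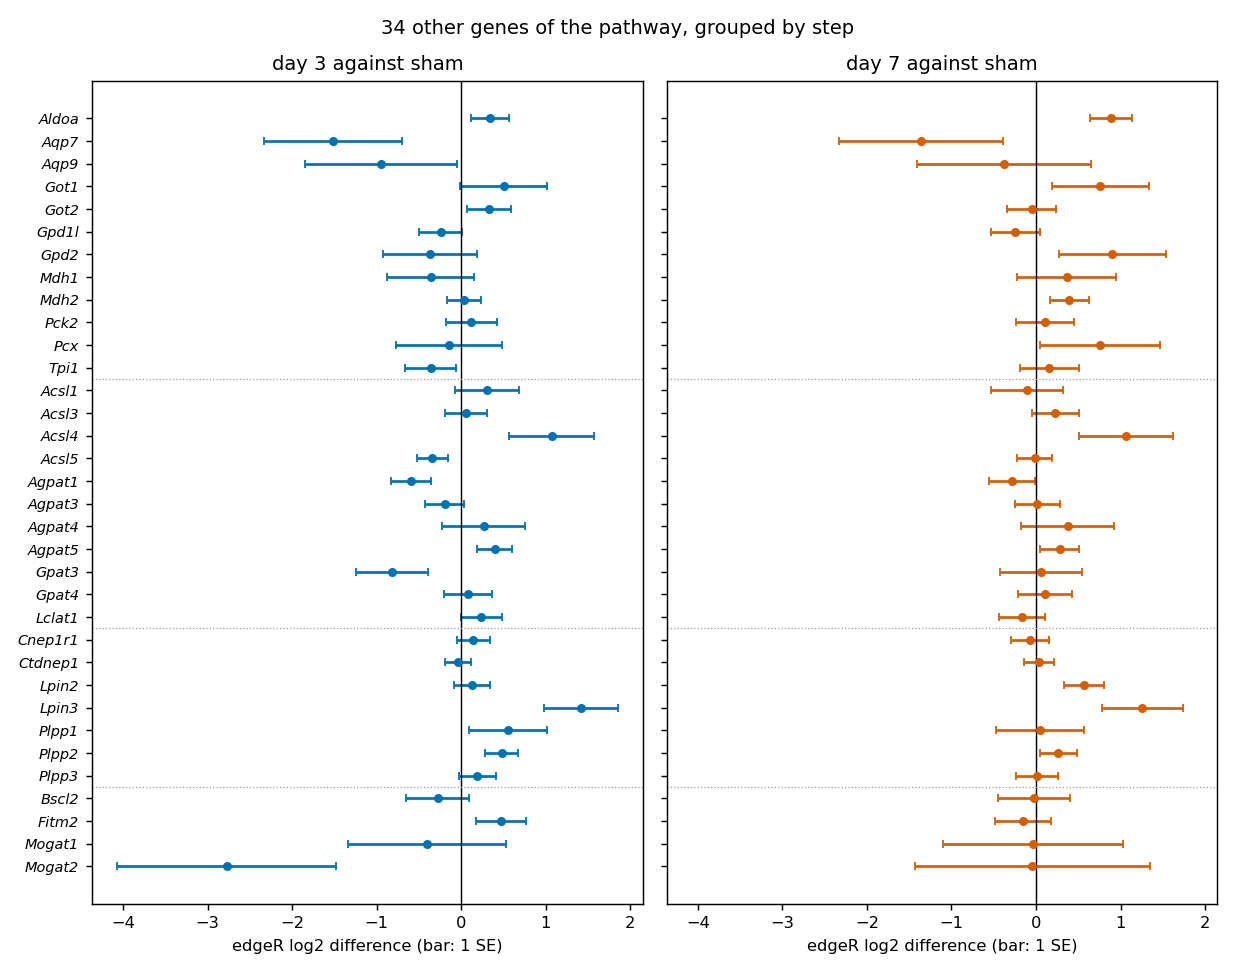
edgeR log2 differences of the 34 other pathway genes for day 3 (left) and day 7 (right) against sham, with bars of 1 SE; dotted lines part the steps, from glycerol 3-phosphate supply at the top to the last acylation and droplet formation at the bottom. Aldoa (0.88) and Lpin3 (1.26) at day 7 lie farthest from 0 relative to their bars, and Mogat2 at day 3 (-2.78) has the widest bar there.

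Genes with the most similar pattern were named by Pearson's r of log2 CPM over the 12 libraries, among 11155 genes, as a description in which all pairs share the same libraries. Gpd1 was nearest to Mlx (r = 0.894), which encodes a partner of the carbohydrate response factor ChREBP, and to Pmm1 (0.893), a phosphomannomutase. Pck1 was nearest to Dram1 (0.881) and Cd81 (0.871), and Gk to Mrto4 (0.917) and Trabd (0.915). Gpam was nearest to Nrg4 (0.910), a secreted factor of fat cells, and Mrs2 (0.868), and Agpat2 to Alas1 (0.975), the rate-limiting enzyme of haem synthesis, and Syt12 (0.958). Lpin1 was nearest to Atf7 (0.944) and Sugp1 (0.875), Dgat1 to Atg4b (0.908) and Cyp4f13 (0.898), and Dgat2 to Slc2a13 (0.962) and Ifi27 (0.961). By rank over the same libraries, Spearman's rho of these pairs ran from 0.671 (Pck1 with Dram1) to 0.944 (Lpin1 with Sugp1). Each r is the highest or second highest of its search, and how high it would be by chance was not tested. None of the 34 other pathway genes described above appeared among these nearest genes.

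The day 7 differences of Gpd1 and Pck1 from sham were recomputed without sham mouse 4, the library with high Alb, and with scaling to adipocyte markers. Without sham mouse 4, Gpd1 differed by 1.59 and Pck1 by -1.89. Relative to the summed adipocyte markers, with Acsl1 left out of this scaling, Gpd1 differed by 1.54 and Pck1 by -1.86. The median of all genes shifted to 0.15 there. Of other cell types, 3 of 5 skeletal muscle markers were measured. They summed to 2.31 to 4.29 CPM at day 7 against 8.96 to 46.4 CPM in sham without overlap. Acta1 made up most of this sum (mean 2.97 CPM at day 7 and 25.0 CPM in sham). Mylpf and Tnnt3 reached at most 0.835 and 0.684 CPM. Over all genes, 4.07% were lower at day 7 than in sham without overlap. The 6 of 6 mesothelial markers summed to 206 to 821 CPM at day 7 against 724 to 1066 CPM in sham, and the 6 epididymis markers had no values. The summed macrophage, endothelial, fibroblast, erythroid and brown or beige adipocyte markers overlapped between day 7 and sham. Of the brown or beige markers, 4 of 5 were measured. Erythroid markers stood at 3943 to 13744 CPM at day 7 against 1474 to 4527 CPM in sham. The 8 of 10 measured hepatocyte markers summed to 1565 to 11822 CPM in sham, 2435 to 7940 CPM at day 3 and 950 to 8343 CPM at day 7, of which Cyp2e1 alone held 859 to 11323 CPM over the libraries, while Apoa2, Fgb and Mup3 were each at 0 in 3 libraries. The part of these cell types in the differences of the 8 genes was not tested.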

How the data were processed

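RNA was extracted from frozen eWAT with QIAzol, cleaned on RNeasy columns and treated with DNase, per the labels' protocols. Per the submitters' processing notes, Partek, STAR, DESeq2 and build mm39 were used; versions and roles are not given in the sources used here. The tested values are estimated counts for each gene, called raw per the file headers, of which 29.4% to 39.8% in a sample were not whole; they were rounded. A deposited normalized signal served only to match values to genes. The authors' deposited p-value, false discovery rate and log2 ratio are quoted where named.

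In the deposited table the 18086 lines of per-sample values do not stand beside their own genes. Each went to the gene with the same deposited mean and maximum, within a relative 3e-05 and in file order; 18070 matched 1 gene, 16 were settled by neighbours and 0 broke the order. The deposited group means lay within 5% of those of the assigned values for at least 99.9% of the genes compared. Per-sample columns of no labelled sample numbered 0.

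Genes passing filterByExpr (minimum count 10) were tested in edgeR 4.0.16 (R 4.3.3, statmod 1.5.0) with TMM scaling, robust quasi-likelihood and all 12 libraries in 1 fit; SE is the log2 difference over the square root of F. CPM use TMM-scaled totals. Exon lengths come from GENCODE and promoters from RefSeq on GRCm38.p6; coordinates of genes are the deposited mm39 ones. Motif shares count promoters with at least 1 match. Checks on simulated counts preceded the fits. Alternatives used DESeq2 1.42.0, limma 3.58.1 voom, other scalings, filters and subsets. Other pathway genes were named by a rule, as the 4 with the smallest p per comparison and a mean of at least 1 CPM. Aqp7, Acsl5, Fitm2, Plpp1, Plpp3, Ctdnep1, Cnep1r1, Mogat1 and Bscl2 were described outside this rule. The genes and lists were chosen with earlier results of these data known.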

Additional observations from a re-analysis of the deposited data

Results flagged for a closer look

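In groups of 4 or 5 libraries, 32 sets of values were searched for a library far from the others. They came from the 8 genes and from the pathway genes named by smallest p. Chance flags about 1 in 20 of such groups. Dgat2 stood out in day 3 mouse 5, at 937 CPM against 215 CPM in the nearest day 3 library, a gap of 0.856 of the group's range. Gpd2, the mitochondrial glycerol 3-phosphate dehydrogenase, stood out in the same mouse, at 114 CPM against 47.3 CPM in the nearest, a gap of 0.778 of the range. The same library correlated more closely with sham than with day 3 over all genes. Every day 7 library likewise correlated more closely with sham than with its own group. Without day 3 mouse 5, Dgat2 at day 3 differed from sham by -1.88 on the log2 scale in place of -0.71.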

How the results depend on the processing

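All p-values rest on the spread between 3 to 5 mice per group. The number of genes called at day 3 against sham was 1 in edgeR, 121 with DESeq2, and 0 with voom quality weights, the replicate block, without sham mouse 4 and day 3 mouse 1 together, and scaled to adipocyte markers; leaving out 1 library gave 0 to 2. At day 7 against sham it was 0, with DESeq2 68, with voom 15 and 0 to 3 without 1 library; at day 7 against day 3 it was 0, 22, 2 and 0 to 4. DESeq2 called 1 of the 8 genes (Gpd1, 1.49) and 1 other pathway gene (Aldoa) at day 7; the cause of these differences was not tested. For the log2 differences of the 8 genes, 275 of those without 1 library kept direction and call and 13 changed sign; of the other alternatives 185 kept both, 6 changed sign and 1 newly passed. Sign changes: Gpd1 at day 3 was -0.078 with voom and -0.080 without the pair of mice; Lpin1 at day 7 was 0.031 with voom, 0.10 with the replicate block and 0.087 scaled to adipocyte markers; Gk between day 7 and day 3 was -0.24 with voom. Without 1 library, day 3 against sham ran from -0.51 to 0.082 for Agpat2, -0.11 to 0.72 for Lpin1 and -0.18 to 0.25 for Gpd1, day 7 against sham from -0.42 to 0.39 for Lpin1 and -0.24 to 0.23 for Dgat1, and day 7 against day 3 from -0.20 to 0.48 for Gk. Gpd1 at day 7 ran from 1.21 to 1.80 without 1 library (adjusted p 0.183 to 0.991) and Pck1 from -2.65 to -1.35 (0.397 to 0.994); other alternatives gave 1.48 to 1.59 (0.0385 to 0.997) and -2.58 to -1.75 (0.0723 to 0.997). Replicate numbers did not pair the mice: deviations of same-numbered mice correlated between -0.497 and 0.252, and the replicate block gave Gpd1 1.51 and Pck1 -1.90 at day 7, with no call among the 8 genes changed.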
